A study of Mus musculus with 9 samples.

Results

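The genes described here are 44 components of the DNA replication machinery, chosen by gene symbol and followed in CD8+ T cells, out of 53679 gene identifiers in the count table. The rule uses symbols and no measured value, although the list was drawn up with earlier results of these data known. The study sequenced total RNA from Tc0 cells activated for 3 days with CoA, from Tc22 cells and from Tc0 cells without CoA. Cells of C57BL/6 mice 715, 725 and 728 gave 1 library of each kind, so each group holds 3 libraries, matched by mouse. The labels name vehicle as the counterpart of CoA, and give Tc0 and Tc22 by name only. By common usage Tc22 cells are CD8+ T cells that make IL-22, and Tc0 cells are activated without polarising cytokines. The culture conditions, the CoA dose and the age and sex of the mice are not named in the labels.

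Replication is prepared in G1 phase, when the origin recognition complex (ORC) marks origins and Cdc6 and Cdt1 load the MCM2-7 helicase onto them. In S phase the kinases Cdc7-Dbf4 and CDK turn the helicase on by adding Cdc45 and the GINS complex. DNA polymerases alpha, delta and epsilon then copy the strands, with the sliding clamp PCNA tethering polymerase delta, while RPA covers single-stranded DNA. Activated CD8+ T cells divide rapidly, and many of these genes are textbook targets of E2F transcription factors, which act at the passage into S phase.

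Promoter windows are shown for genes that rose with CoA, since these genes carry the main difference below. RefSeq windows (GRCm38.p6, 250 bases before to 50 bases after a start) were found for 36 of the 44 members. E2F-type words (TTTCCCGC, TTTGGCGC, TTTCGCGC or TTTGCCGC, on either strand) were present in 13 of 36 members (36.1%), against 427 of 10107 tested genes with a window (4.22%). Words that overlap each other were both counted as present. The E2F words are in capitals in the following sequences, each printed 5′ to 3′ on the strand of its gene. Orc1 lies at chr4:108579204-108579503 on the plus strand, Cdc6 at chr11:98907901-98908200 on the plus strand and Rfc3 at chr5:151651159-151651458 on the minus strand. Mcm7 lies at chr5:138171834-138172133 and Mcm10 at chr2:5012742-5013041, both on the minus strand. Mcm10 is shown as a gene that rose and whose window holds none of these words in full. The window ends in tttggcg, which is TTTGGCGC without its last base, so the border leaves that word undecided.
Orc1: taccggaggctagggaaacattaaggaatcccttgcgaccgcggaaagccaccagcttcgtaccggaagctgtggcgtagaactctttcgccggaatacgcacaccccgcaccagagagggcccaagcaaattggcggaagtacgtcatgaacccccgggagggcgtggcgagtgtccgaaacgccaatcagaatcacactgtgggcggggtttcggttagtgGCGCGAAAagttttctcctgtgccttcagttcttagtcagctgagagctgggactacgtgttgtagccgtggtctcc
Cdc6: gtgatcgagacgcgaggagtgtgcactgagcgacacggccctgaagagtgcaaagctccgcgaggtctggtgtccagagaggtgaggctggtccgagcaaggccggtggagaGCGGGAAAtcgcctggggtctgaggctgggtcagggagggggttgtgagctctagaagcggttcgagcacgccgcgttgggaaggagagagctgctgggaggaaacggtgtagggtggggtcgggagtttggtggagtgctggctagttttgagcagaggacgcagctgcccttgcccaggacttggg
Rfc3: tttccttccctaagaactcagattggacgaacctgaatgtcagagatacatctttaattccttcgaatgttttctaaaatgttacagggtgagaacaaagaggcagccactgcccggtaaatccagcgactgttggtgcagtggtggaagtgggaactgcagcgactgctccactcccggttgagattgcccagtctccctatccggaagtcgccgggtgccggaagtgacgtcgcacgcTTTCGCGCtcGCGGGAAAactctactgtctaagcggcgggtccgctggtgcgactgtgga
Mcm7: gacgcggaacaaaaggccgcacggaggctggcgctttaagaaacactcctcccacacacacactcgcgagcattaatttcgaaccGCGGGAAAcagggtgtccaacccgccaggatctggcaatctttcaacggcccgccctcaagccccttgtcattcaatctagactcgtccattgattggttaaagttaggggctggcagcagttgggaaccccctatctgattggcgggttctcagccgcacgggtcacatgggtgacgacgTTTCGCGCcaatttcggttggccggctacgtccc
Mcm10: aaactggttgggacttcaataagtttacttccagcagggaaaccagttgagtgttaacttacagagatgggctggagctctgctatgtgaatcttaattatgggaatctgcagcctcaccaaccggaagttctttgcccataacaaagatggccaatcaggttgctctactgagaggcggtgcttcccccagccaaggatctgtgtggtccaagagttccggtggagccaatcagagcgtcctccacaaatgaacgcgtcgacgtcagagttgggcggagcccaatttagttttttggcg

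Counted from the start in each window, the E2F word began at position -27 in Orc1 and at -138 in Cdc6. Rfc3 had words at -10 and 1, and Mcm7 at -165 and 17. The RefSeq starts on which the windows of Cdc6 and Mcm7 are built lie 350 and 539 bases from the gene start in GENCODE M21, so for these genes the window may belong to another start. Among members that rose with CoA, 4 of 10 windows held an E2F word (40%), against 9 of 26 windows of the other members (34.6%). The CCAAT word was present in 63.9% of member windows, against 39.3% of tested genes, and TTTGAA in 16.7%, against 12.3%. These shares describe letters in 1 window per gene and say nothing about binding.

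All 44 members were measured in every library. Total counts ran from 21841034 to 36254631 per library, and members took 0.697% to 0.836% of them. Levels below are CPM, counts scaled to library size after TMM, a correction for composition. The lowest level of any member in any library was 19.9 CPM. The Tc0 library of mouse 728 stood apart. A chi-square statistic of gene counts, divided by its degrees of freedom, was 216 and 127 against the other Tc0 libraries and 22.3 to 69.8 for other pairs within a group. Its histone genes took 0.668% of counts, against 0.140% and 0.188% in the other Tc0 libraries. Mouse 728 also had the highest histone share in the other groups. It was 0.366% in Tc0 with CoA, against 0.162% and 0.178%, and 0.493% in Tc22, against 0.252% and 0.408%. The 8 CD8 T cell markers, Cd8a and Cd3e among them, summed to 1749 to 2216 CPM in Tc0 with CoA, 2110 to 2633 CPM in Tc22 and 2138 to 2763 CPM in Tc0. Marker lists of the other cell types each summed to at most 16.3 CPM in every library. Some of these low sums moved with CoA. Dendritic cell markers summed to 5.46 to 9.40 CPM in Tc0 with CoA, against 3.73 to 5.005 CPM in Tc0. Most of that sum was Zbtb46, at 7.02, 7.56 and 4.66 CPM in Tc0 with CoA, against 3.97, 2.15 and 3.17 CPM in Tc0. Granulocyte and mast cell markers summed to 1.37 to 3.04 CPM in Tc0 with CoA, against 0.283 to 1.12 CPM in Tc0. Natural killer cell markers were lower, at 1.86 to 2.92 CPM in Tc0 with CoA, against 3.58 to 4.52 CPM in Tc0. Sums of macrophage and monocyte markers overlapped, at 5.05 to 14.0 CPM in Tc0 with CoA, against 4.50 to 6.55 CPM in Tc0. Yet 2 of their 4 measured genes were called higher with CoA and 0 lower. Of measured genes, 1 of 4 dendritic cell, 1 of 2 granulocyte and mast cell and 1 of 4 CD4 markers were called higher. Natural killer cell markers had 1 of 3 called lower, and of all genes 12.5% were called higher and 12.0% lower. The part of these markers in the results was not tested.

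Levels between genes were compared per kilobase of exon, as means over all 9 libraries. Pcna, the sliding clamp, was highest at 260 CPM per kb. Mcm6 followed at 167, Rrm2, the regulated small subunit of ribonucleotide reductase, at 166 and Mcm4 at 125 CPM per kb. Mcm3, Mcm7 and Mcm5 lay between 99.9 and 78.5 CPM per kb, and Mcm2 at 30.0. The polymerase and primase subunits lay between 6.69 CPM per kb for Pola2 and 30.4 for Pola1, the 2 partners of DNA polymerase alpha. ORC members differed among themselves, with Orc6 at 44.6, Orc2 at 33.6 and Orc1 at 16.1 CPM per kb.

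**Figure D1:**
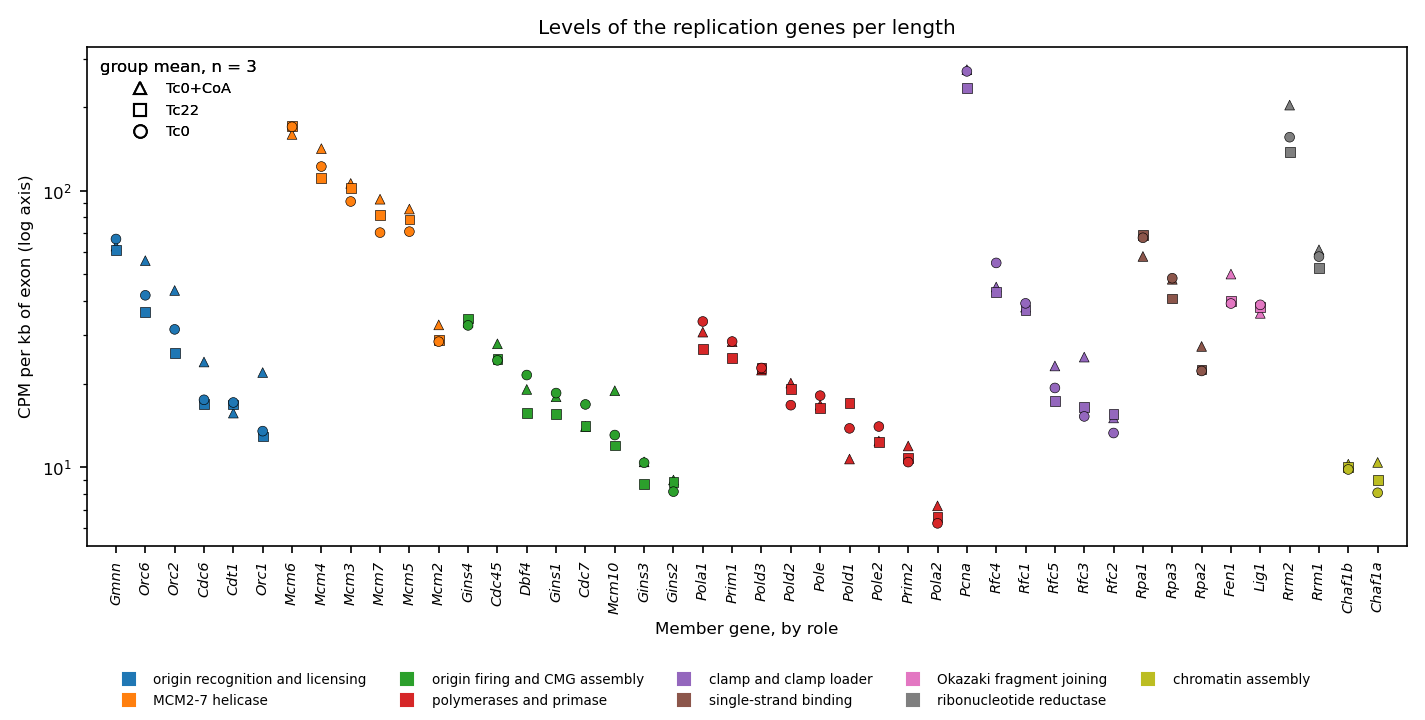
Mean level of each member per kilobase of exon (CPM per kb, log axis) in Tc0 with CoA (triangles), Tc22 (squares) and Tc0 (circles), 3 libraries each, coloured by role. Pcna at 260 and Pola2 at 6.69 CPM per kb over all libraries are the ends of the range.

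The first comparison asked how CoA changed Tc0 cells. Of the 44 members, 10 were higher in Tc0 with CoA than in Tc0 and 0 were lower (edgeR quasi-likelihood test with Benjamini-Hochberg adjustment, adjusted p under 0.05). That is 22.7% of members, against 12.5% of the 15348 tested genes called higher and 12.0% called lower. Among genes at least as abundant as the lowest member, 14.7% were called higher and 15.7% lower. At an unadjusted p under 0.05 there were 13 members, beside 38.1% of all genes, the other 3 being Mcm5, Rfc5 and Rpa2, all with positive log2 fold changes, and DESeq2 also called 10 higher and 0 lower, beside 12.0% of all genes higher and 10.5% lower. The members' median log2 fold change was 0.12, with a range from -0.27 to 0.73, against -0.01 over all genes tested. Summed over members, the level was 8170 ± 357 CPM in Tc0 with CoA and 7562 ± 220 CPM in Tc0 (SD, n = 3 each). In bulk RNA, fewer cells expressing a gene and less RNA per cell cannot be told apart.

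Origin recognition and licensing held the most calls, with 4 of 6 members higher and a median log2 fold change of 0.44. Orc1, the largest ORC subunit, had 68.8, 90.6 and 69.7 CPM in Tc0 with CoA of mice 715, 725 and 728, against 55.7, 45.9 and 39.2 CPM in Tc0. The groups did not overlap, and the log2 fold change was 0.72 ± 0.15 (SE, adjusted p = 0.0106). Within mice the log2 difference was 0.31 in mouse 715, 0.98 in mouse 725 and 0.83 in mouse 728. Orc2, another ORC subunit, had 165, 202 and 137 CPM in Tc0 with CoA, against 161, 127 and 76.8 CPM in Tc0. Its groups overlapped, and mouse 715 differed by only 0.04 on the log2 scale, against 0.67 in mouse 725 and 0.84 in mouse 728; the fitted value was 0.51 ± 0.15 (adjusted p = 0.0353). Orc6, the smallest ORC subunit, had 136, 153 and 124 CPM in Tc0 with CoA, against 118, 110 and 82.1 CPM in Tc0. Its groups did not overlap (log2 fold change 0.43 ± 0.10, adjusted p = 0.017). Cdc6, the loader that joins ORC, had 108, 145 and 123 CPM in Tc0 with CoA, against 86.3, 98.2 and 90.0 CPM in Tc0. Every library with CoA lay above every Tc0 library (log2 fold change 0.45 ± 0.09, adjusted p = 0.0095).

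The other licensing members were not called. Cdt1, which brings MCM2-7 to ORC and Cdc6, had 49.2 ± 9.11 CPM in Tc0 with CoA and 53.7 ± 12.8 CPM in Tc0 (log2 fold change -0.12, adjusted p = 0.475). Gmnn encodes geminin, the inhibitor of Cdt1, and had 92.2 ± 4.96 CPM in Tc0 with CoA and 97.8 ± 10.4 CPM in Tc0 (log2 fold change -0.08, adjusted p = 0.616). The ORC subunits outside the members, Orc3, Orc4 and Orc5, had log2 fold changes of 0.09, 0.15 and -0.12 and none was called. Exons of Orc2 share 29.8% of their bases with the antisense gene Nif3l1, which itself rose with CoA by 0.55 (adjusted p = 0.0129), and Orc6 shares 6.93% with Vps35, which had 313% of its counts. Whether counting used strand is not given in the sources used here, so reads of Orc2 and Nif3l1 cannot be told apart with certainty.

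Of the 6 MCM2-7 helicase subunits, 1 was called, Mcm7, and 5 had positive log2 fold changes. Mcm7 had 367, 410 and 459 CPM in Tc0 with CoA, against 249, 302 and 384 CPM in Tc0. The Tc0 library of mouse 728 lay above the lowest library with CoA, so the groups overlapped, while each mouse was higher with CoA (log2 fold change 0.42 ± 0.11, adjusted p = 0.0215). Mcm4 had 495, 536 and 495 CPM in Tc0 with CoA, against 456, 470 and 390 CPM in Tc0. Its groups did not overlap, yet it missed the threshold (log2 fold change 0.22 ± 0.10, adjusted p = 0.134). Mcm2 had 227 ± 40.8 CPM in Tc0 with CoA and 198 ± 48.1 CPM in Tc0 (log2 fold change 0.21, adjusted p = 0.235). Mcm6, the most abundant subunit, had 745 ± 31.7 CPM in Tc0 with CoA and 794 ± 40.9 CPM in Tc0 (log2 fold change -0.09, adjusted p = 0.533).

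Among 8 genes of origin firing and helicase assembly, 1 was called. Mcm10, which binds the assembled helicase, had 132, 165 and 138 CPM in Tc0 with CoA, against 98.7, 102 and 100 CPM in Tc0. The Tc0 libraries were close together and all lay below those with CoA (log2 fold change 0.53 ± 0.10, adjusted p = 0.00773). Cdc45, the helicase cofactor, had 97.8 ± 6.05 CPM in Tc0 with CoA and 85.2 ± 7.72 CPM in Tc0 (log2 fold change 0.20, adjusted p = 0.168). Cdc7 had a log2 fold change of -0.26 and its activator Dbf4 of -0.16, neither called. The GINS subunits ranged from -0.04 for Gins1 to 0.16 for Gins2.

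At the clamp and its loader, 1 of 6 members was called. Rfc3, a subunit of the replication factor C complex that loads PCNA, had 82.6, 99.1 and 88.9 CPM in Tc0 with CoA, against 63.7, 53.0 and 48.3 CPM in Tc0. Its groups did not overlap, and its log2 fold change of 0.73 ± 0.13 was the highest of the 44 members (adjusted p = 0.0064). The other loader subunits ran from -0.27 for Rfc4 to 0.26 for Rfc5, with none called. Pcna had 657 ± 19.1 CPM in Tc0 with CoA and 648 ± 103 CPM in Tc0 (log2 fold change 0.03, adjusted p = 0.865).

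Polymerase and primase genes had no call among 9 members, with a median log2 fold change of -0.03 and a range from -0.22 for Pold1 to 0.34 for Pold2. Pola1, the catalytic subunit of polymerase alpha, had 271 ± 22.5 CPM in Tc0 with CoA and 296 ± 63.3 CPM in Tc0 (log2 fold change -0.11, adjusted p = 0.493). None of the 3 RPA genes was called, and Rpa2, the middle subunit, had a log2 fold change of 0.30 (adjusted p = 0.0746). Prim2, the large primase subunit, had the smallest p of the 9 polymerase and primase genes, with a log2 fold change of 0.20 (adjusted p = 0.176).

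Fen1, the flap nuclease of Okazaki fragments, had 105, 121 and 136 CPM in Tc0 with CoA, against 75.6, 90.6 and 117 CPM in Tc0. Each mouse was higher with CoA although the groups overlapped (log2 fold change 0.37 ± 0.11, adjusted p = 0.0369). Lig1, the ligase that seals the fragments, had a log2 fold change of -0.10 (adjusted p = 0.504). Rrm2 had 548, 625 and 521 CPM in Tc0 with CoA, against 505, 439 and 352 CPM in Tc0, with no overlap (log2 fold change 0.40 ± 0.12, adjusted p = 0.0356). Its partner Rrm1, the large subunit, had 672 ± 27.9 CPM in Tc0 with CoA and 635 ± 71.7 CPM in Tc0 (log2 fold change 0.09, adjusted p = 0.561). Chaf1a, the large subunit of the chromatin assembly factor CAF-1, had 78.9, 89.3 and 108 CPM in Tc0 with CoA, against 55.7, 68.8 and 89.8 CPM in Tc0. Its groups overlapped (log2 fold change 0.38 ± 0.11, adjusted p = 0.0361), and Chaf1b, the middle subunit, had a value of 0.08 (adjusted p = 0.689). Exons of Fen1 and Chaf1a share 78.8% and 52.5% of their bases with the antisense genes Gm10143 and Ubxn6, which had 3.05% and 27.9% of their counts and were not called. Fen1 also shares 5.37% with the antisense gene Tmem258, which had 46.8% of its counts. Mcm7 shares 1.45% with Cops6 and 7.25% with Ap4m1, which had 11.8% and 4.17% of its counts. Rfc4 shares 12.7% with Eif4a2, which had 897% of its counts. These antisense genes were not called with CoA either.

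**Figure D2:**
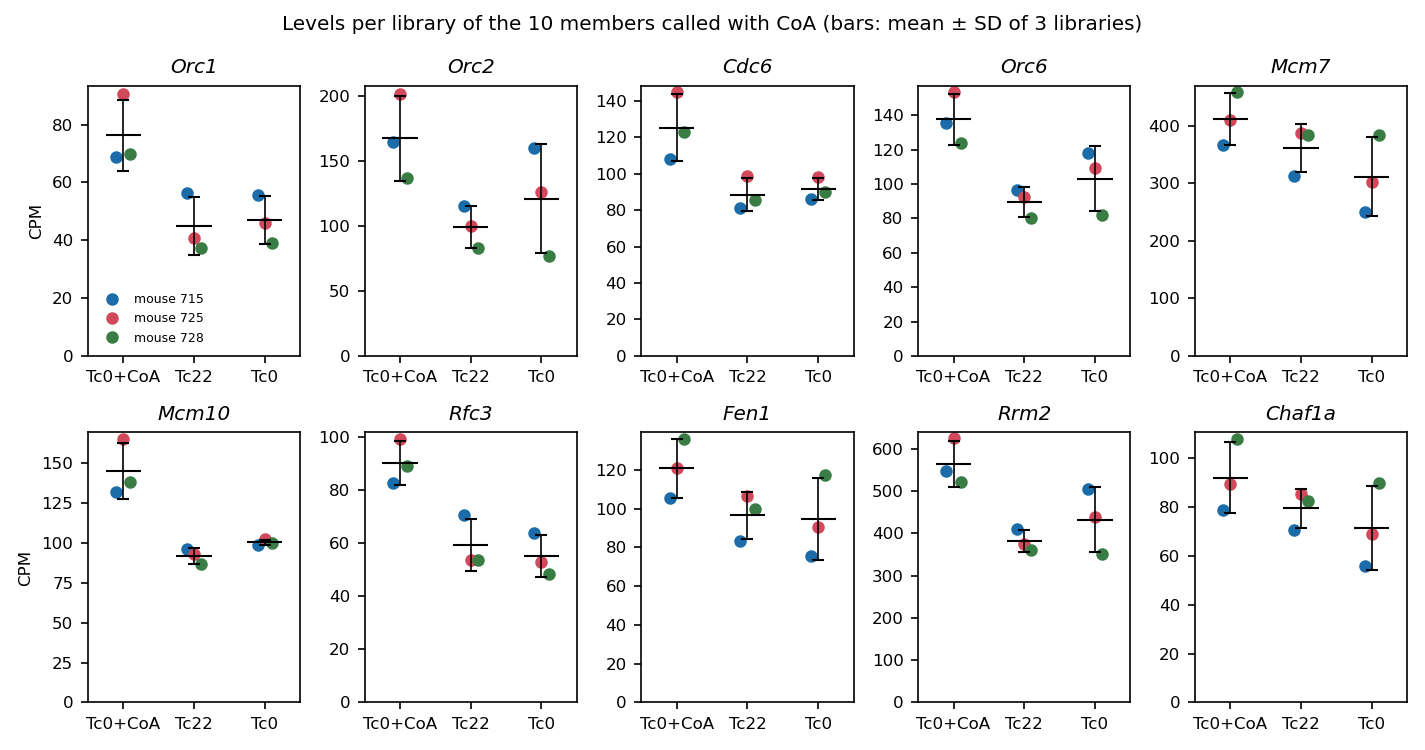
CPM per library (points, coloured by mouse) of the 10 members called higher with CoA, in Tc0 with CoA, Tc22 and Tc0, with the mean and SD of 3 libraries in black. For Orc1, Orc6, Cdc6, Mcm10, Rfc3 and Rrm2 every library with CoA lies above every Tc0 library.

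Across the members, 7 had groups that did not overlap in the higher direction, against 14.2% of all genes, and 0 in the lower direction, against 13.6%. All 3 mice were higher in 20 members and lower in 3, against 27.2% and 26.8% of all genes. Fitted without the mouse as a block, 2 members stayed past the threshold, Mcm10 and Rfc3, while 5.21% of all genes were called higher. The count was 2 without the CoA library of mouse 725, 2 without that of mouse 728, 1 without the Tc0 library of mouse 725, 6 without the Tc22 library of mouse 715, 0 without mouse 725 and 4 without mouse 728. The share of all genes called higher in those fits was 4.77%, 5.13%, 4.13%, 10.4%, 3.0% and 6.13%. Taken over 44 members, the members' share was below that of all genes without the block and without mouse 725. It was also below without the CoA library of mouse 725 or 728 and without the Tc0 library of mouse 725. The members' share stayed above that of all genes without the Tc22 library of mouse 715 and without mouse 728.

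The Tc0 library of mouse 728 differed from the other Tc0 libraries across the members. It lay above both in 18 members, below both in 19 and between them in 7. Pold1, the catalytic subunit of polymerase delta, had 128 CPM there, against 36.5 and 36.7 CPM in Tc0 of mice 715 and 725, and Orc2 had 76.8 CPM, against 161 and 127. The log2 ratio of that library to the mean of the others ran from -0.90 for Orc2 to 1.81 for Pold1. It went with the GC content of the member's longest transcript, with Pearson's r of 0.844 and Spearman's rho of 0.843 over 44 genes of the same libraries. The log2 fold changes with CoA had r = 0.0801 and rho = 0.146 against GC content, and median GC content was 47.7% in the 10 members that rose and 48.7% in the other 34. By mouse, r was 0.524 in mouse 715, 0.235 in mouse 725 and -0.473 in mouse 728.

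**Figure D3:**
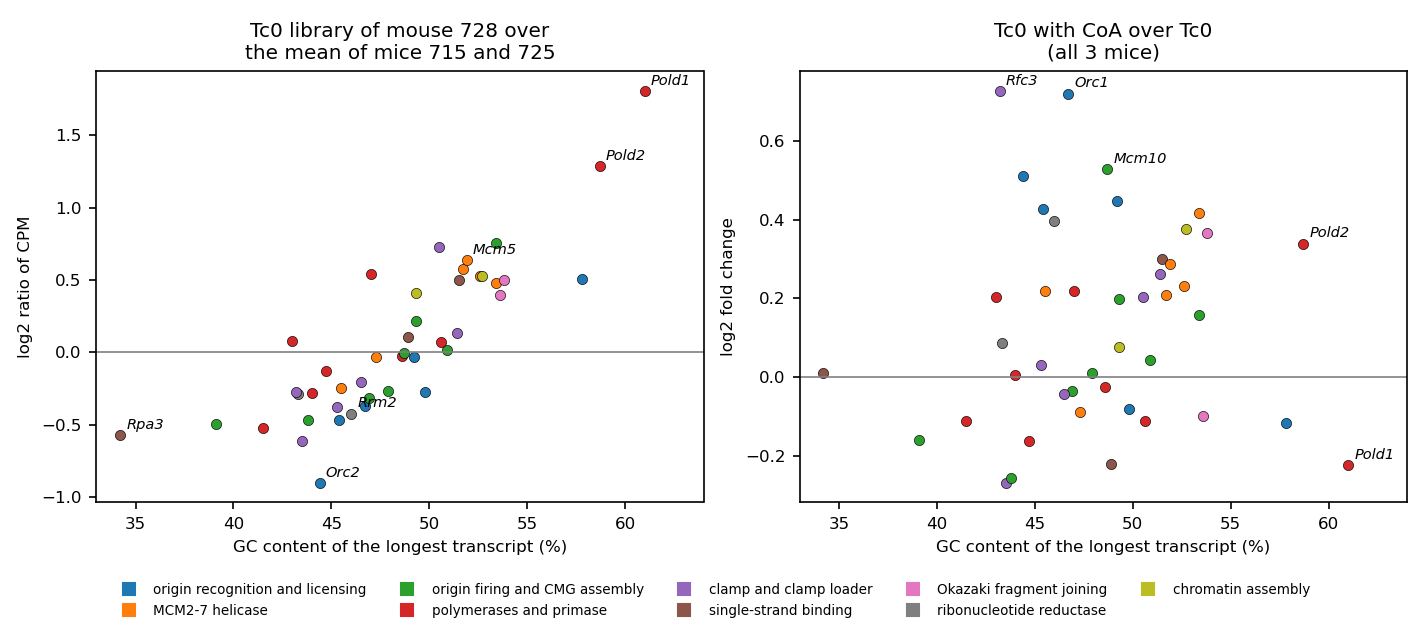
Left, log2 ratio of CPM in the Tc0 library of mouse 728 to the mean of the Tc0 libraries of mice 715 and 725, against the GC content (%) of each member's longest transcript; right, the log2 fold change of Tc0 with CoA over Tc0 against the same axis. Points are members, coloured by role. The lowest point of the left panel is Orc2 at -0.90 and the highest is Pold1 at 1.81.

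Without that library, 14 members were higher with CoA and 3 lower, while 13.4% and 11.9% of all genes were called. Mcm3, Mcm5, Rfc2, Rfc5, Pold2 and Rpa2 were gained, and Orc2 and Rrm2 were lost. The 3 lower members were Rfc4 (log2 fold change -0.43, adjusted p = 0.0146), Cdc7 (-0.37, adjusted p = 0.0363) and Dbf4 (-0.28, adjusted p = 0.0449). Orc1, Cdc6, Orc6, Mcm7, Mcm10, Rfc3, Fen1 and Chaf1a were called with and without it. Other leave-outs removed more of these calls. Of 12 fits that left out a library or a mouse, Fen1 and Chaf1a each lost the call in 9, Rrm2 in 8, Orc2 in 7 and Mcm7 in 6. Orc1, Cdc6 and Orc6 each lost it in 5, and Mcm10 and Rfc3 each in 2. With offsets for GC content, an alternative chosen after seeing the data, 14 members were higher and 1 lower, while 18% and 16.0% of all genes were called.

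The second comparison asked how Tc22 cells differ from Tc0 cells. The edgeR fit called 0 members higher in Tc22 and 0 lower, while 2.48% and 1.21% of all genes were called. Unadjusted p was under 0.05 for 4 members, 9.09% of them against 21.2% of all genes, and DESeq2 called 0 higher and 1 lower, Dbf4 (adjusted p = 0.0237), beside 4.0% of all genes higher and 2.02% lower. The median log2 fold change was -0.03, with a range from -0.45 to 0.56, against -0.01 over all genes. The summed member level was 7250 ± 335 CPM in Tc22, against 7562 ± 220 CPM in Tc0 (SD, n = 3 each). This comparison uses the same Tc0 libraries as the first.

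Dbf4 had 135, 144 and 131 CPM in Tc22, against 207, 208 and 147 CPM in Tc0. Its groups did not overlap (log2 fold change -0.45 ± 0.11, adjusted p = 0.0677). Mcm10 was the other member whose groups did not overlap, with 96.3, 93.0 and 86.6 CPM in Tc22, against 98.7, 102 and 100 CPM in Tc0 (log2 fold change -0.13, adjusted p = 0.489). These are 2 members, and 5.98% of all genes had non-overlapping groups in that direction. Orc1 had 44.8 ± 9.98 CPM in Tc22, against 46.9 ± 8.30 CPM in Tc0. Cdc6 had 88.5 ± 9.06 CPM in Tc22, against 91.5 ± 6.05 CPM in Tc0. Pcna had 564 ± 49.0 CPM in Tc22, against 648 ± 103 CPM in Tc0. The means of these 3 genes differed by less than the SD in Tc0, though for Pcna by more than the SD in Tc22 (log2 fold change -0.19, adjusted p = 0.334). That SD holds differences between mice, while the libraries are matched by mouse. Within mice 715, 725 and 728 the log2 difference was -0.293, -0.264 and -0.015 for Pcna, lower in each mouse. It was 0.014, -0.168 and -0.063 for Orc1, and -0.087, 0.008 and -0.075 for Cdc6. Pold1 had 71.8, 78.6 and 98.3 CPM in Tc22, against 36.5, 36.7 and 128 CPM in Tc0, so mice 715 and 725 were higher in Tc22 and mouse 728 lower (log2 fold change 0.56 ± 0.25, adjusted p = 0.234).

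The members' log2 fold changes in Tc22 over Tc0 went with GC content, with r = 0.739 and rho = 0.686 over the 44 members, and r = 0.338 over 15339 genes. Within mice r was 0.762 in mouse 715, 0.796 in mouse 725 and -0.601 in mouse 728. Without the Tc0 library of mouse 728, 4 members were higher in Tc22 and 6 lower, while 9.91% and 7.10% of all genes were called. The higher ones were Pold1 (log2 fold change 0.95, adjusted p = 0.0181), Pold2, Rfc2 and Mcm7, and the lower ones Dbf4 (-0.57, adjusted p = 0.0125), Rfc4, Pola1, Cdc7, Rpa3 and Pcna. Without mouse 728 altogether, 3 were higher and 2 lower, beside 5.33% and 1.60% of all genes. Without the Tc22 library of that mouse 1 was higher and 0 lower, beside 2.88% and 0.821% of all genes. With GC offsets, 0 were higher and 0 lower, beside 2.68% and 1.43%.

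**Figure D4:**
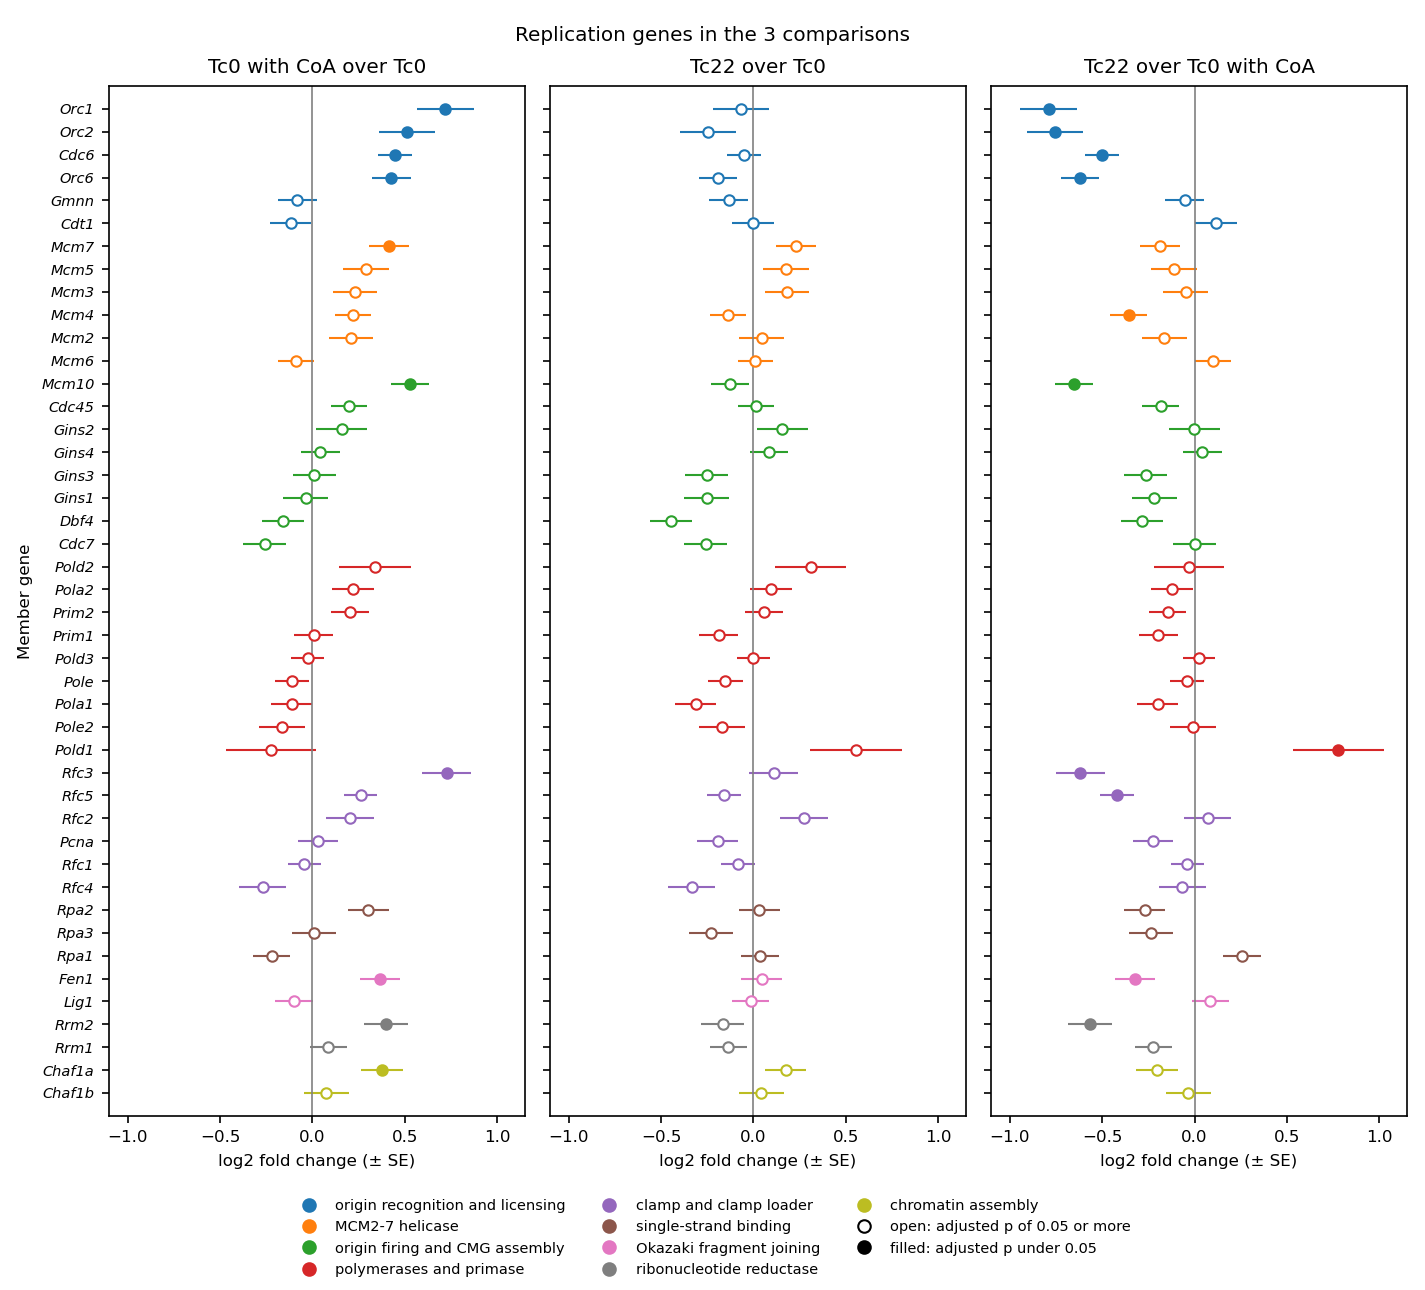
Log2 fold change ± SE of the 44 members in Tc0 with CoA over Tc0 (left), Tc22 over Tc0 (middle) and Tc22 over Tc0 with CoA (right), grouped and coloured by role; filled points have an adjusted p under 0.05. The filled points number 10 on the left, 0 in the middle and 11 on the right, where each filled point but that of Pold1 lies below 0.

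The third comparison set Tc22 against Tc0 with CoA, and it shares the CoA libraries with the first. Of the 44 members 10 were lower in Tc22 and 1 was higher, 22.7% and 2.27% of members, while 16.0% of all genes were called lower and 16.0% higher. DESeq2 called 9 lower and 1 higher, beside 13.9% of all genes in each direction, and unadjusted p was under 0.05 for 16, beside 43.3% of all genes. The median log2 fold change was -0.17, against 0.01 over all genes. The summed member level was 7250 ± 335 CPM in Tc22, against 8170 ± 357 CPM in Tc0 with CoA. In 16 members every Tc22 library lay below every library of Tc0 with CoA, against 21.7% of all genes, and in 0 members above, against 20.2%. All 3 mice were lower in Tc22 in 25 members and higher in 3, against 32.5% and 32.9% of all genes.

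The lower members were Orc1, Orc2, Orc6, Cdc6, Mcm4, Mcm10, Rfc3, Rfc5, Fen1 and Rrm2. Of 12 fits that left out a library or a mouse, the call on Fen1 was lost in 11 and that on Mcm4 in 8. Rfc3 lost it in 4, Orc1 and Rrm2 in 2 each, Orc2, Cdc6 and Rfc5 in 1 each, and Mcm10 and Orc6 in 0. Fen1 had overlapping groups and an adjusted p of 0.0485, and DESeq2 did not call it (adjusted p = 0.0582). Orc1 had 56.2, 40.8 and 37.5 CPM in Tc22, against 68.8, 90.6 and 69.7 CPM in Tc0 with CoA (log2 fold change -0.79 ± 0.15, adjusted p = 0.00495). Orc2 had 115, 99.8 and 83.2 CPM in Tc22, against 165, 202 and 137 CPM in Tc0 with CoA (log2 fold change -0.76 ± 0.15, adjusted p = 0.00555). In both genes the groups did not overlap. Summed, the 3 ORC members gave 234 ± 33.8 CPM in Tc22, against 382 ± 58.6 CPM in Tc0 with CoA, and 271 ± 68.6 CPM in Tc0. Mcm10 fell by 0.65 on the log2 scale (adjusted p = 0.00207) and Orc6 by 0.62 (adjusted p = 0.00269). Rfc5 had 72.4, 89.1 and 81.0 CPM in Tc22, against 95.7, 119 and 110 CPM in Tc0 with CoA, without overlap (log2 fold change -0.42 ± 0.09, adjusted p = 0.00749). Mcm4 had 419, 404 and 370 CPM in Tc22, against 495, 536 and 495 CPM in Tc0 with CoA, also without overlap (log2 fold change -0.36 ± 0.10, adjusted p = 0.0221). Rrm2 had 411, 374 and 361 CPM in Tc22, against 548, 625 and 521 CPM in Tc0 with CoA (log2 fold change -0.56 ± 0.12, adjusted p = 0.00658).

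Pold1 was the member called higher, with 71.8, 78.6 and 98.3 CPM in Tc22, against 44.03, 34.4 and 77.3 CPM in Tc0 with CoA. Its groups overlapped while each mouse was higher in Tc22 (log2 fold change 0.78 ± 0.25, adjusted p = 0.0362). Pold1 also had the highest GC content of the members, at 61%. Log2 fold changes in Tc22 over Tc0 with CoA had r = 0.438 and rho = 0.393 against GC content over the 44 members. Over 15339 genes r was 0.161. Within mice r was 0.491 in mouse 715, 0.455 in mouse 725 and 0.254 in mouse 728. Whether GC content bears on these calls was not tested. Without the mouse block 6 members were lower and 0 higher, while 7.04% and 6.63% of all genes were called. The lower count was 2 without mouse 725, 6 without mouse 728 and 6 without the Tc22 library of mouse 725, while the share of all genes called lower was 5.57%, 8.15% and 6.61% in those fits. The call on Pold1 was lost without the CoA library of mouse 725 or 728, without the Tc22 library of either mouse 715 or 725, and without all libraries of mouse 715 or of mouse 725.

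Other genes of replication and the cell cycle were read from 6 lists. In Tc0 with CoA over Tc0, 5 of 28 further replisome and origin factors rose and 2 fell. In that fit 12.5% of all genes were called higher and 12.0% lower, shares that stand beside every list of this comparison. Pold4, the small subunit of polymerase delta, fell to 10.3, 5.93 and 15.8 CPM in Tc0 with CoA, against 15.6, 14.5 and 35.2 CPM in Tc0 (log2 fold change -1.01 ± 0.20, adjusted p = 0.00885). Mtbp, a partner of the firing factor Treslin, rose by 0.39 (adjusted p = 0.0201), as did Dna2, a nuclease and helicase, by 0.51 (adjusted p = 0.022). In deoxynucleotide supply 3 of 11 rose and 2 fell. Nme1, a nucleoside diphosphate kinase, had 185 ± 12.1 CPM in Tc0 with CoA and 115 ± 9.08 CPM in Tc0 (adjusted p = 0.00348), while Dck, the salvage kinase for deoxycytidine, had 89.4 ± 5.53 CPM in Tc0 with CoA and 154 ± 32.1 CPM in Tc0 (adjusted p = 0.00586). Of 16 fork and checkpoint genes Cdc25a rose (0.61, adjusted p = 0.0215) and Atr, the replication stress kinase, fell (-0.65, adjusted p = 0.00724). Of 9 methylation and cohesion genes only Rad21, a cohesin subunit, was called, at -0.49 (adjusted p = 0.012).

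The E2F, RB and S-phase kinase list had 4 of 21 genes higher with CoA and 7 lower, beside 12.5% and 12.0% of all genes. Ccne1, cyclin E1, had 85.3, 102 and 97.3 CPM in Tc0 with CoA, against 63.1, 60.1 and 59.1 CPM in Tc0 (log2 fold change 0.64 ± 0.10, adjusted p = 0.00417). Tfdp1, the dimer partner of E2F proteins, had 486 ± 29.7 CPM in Tc0 with CoA and 310 ± 40.7 CPM in Tc0 (adjusted p = 0.00604). Rbl1, the RB relative p107, fell by 0.66 (adjusted p = 0.00689). Of 20 mitosis genes 8 fell and 1, Aurka, rose, beside 12.0% and 12.5% of all genes. The median log2 fold change of the mitosis genes was -0.28. Nusap1, a spindle protein, had 274, 190 and 242 CPM in Tc0 with CoA, against 442, 460 and 362 CPM in Tc0 (log2 fold change -0.84 ± 0.15, adjusted p = 0.00585). Without the block the mitosis count was 2 lower and the E2F list had 2 higher and 3 lower, while 5.21% of all genes were called higher and 4.31% lower. Without the CoA library of mouse 725 or 728 or the Tc0 library of mouse 725, 1 mitosis gene was lower, further replisome factors had 0 higher and 1 lower, and deoxynucleotide supply had 1 higher and 1 lower. In those fits 4.77%, 5.13% and 4.13% of all genes were called higher, and 3.59%, 4.22% and 3.17% lower. Without the Tc0 library of mouse 728, 6 further replisome factors were higher and 5 lower, and 10 mitosis genes were lower. In that fit 13.4% of all genes were called higher and 11.9% lower. Of the 8 CD8 markers 4 fell with CoA, Cd3d, Cd3e, Cd3g and Cd2, and the other 4 were not called, with log2 fold changes of -0.06 for Cd8a, 0.005 for Cd8b1, 0.04 for Lck and -0.29 for Cd5. Histone genes took 0.162% to 0.366% of counts with CoA, against 0.140% to 0.668% in Tc0; whether these bear on the lists was not tested.

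**Figure D5:**
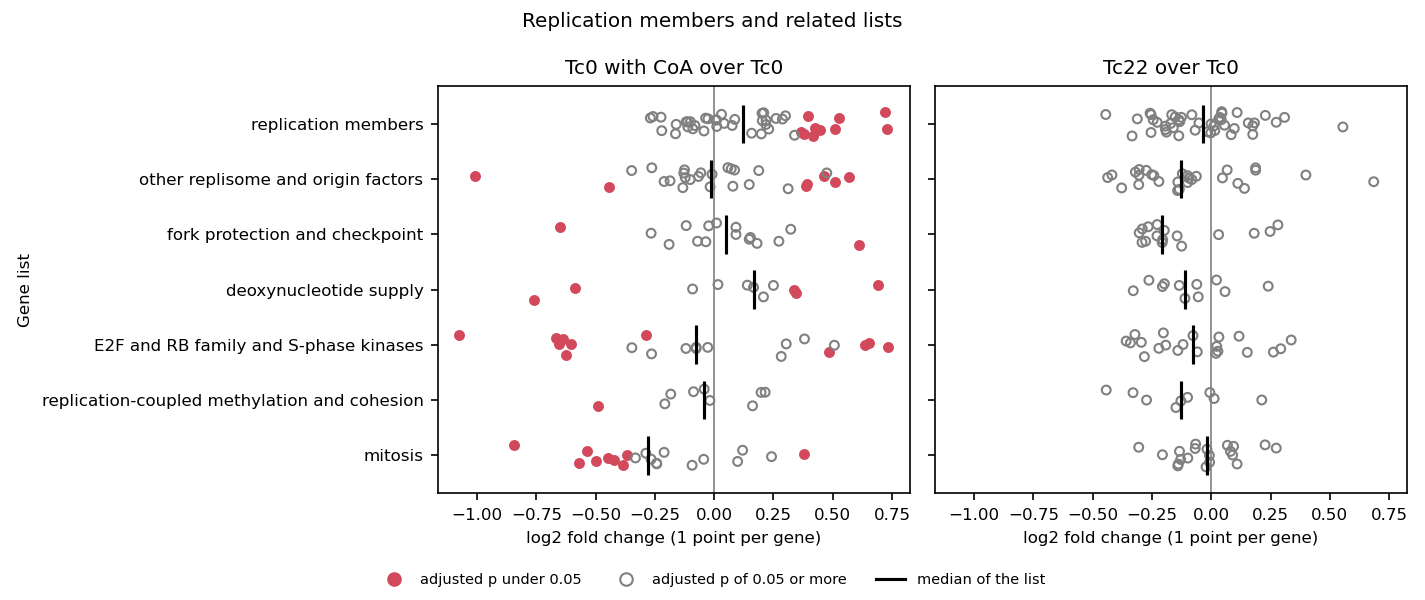
Log2 fold change of each gene of the replication members and the 6 other lists, in Tc0 with CoA over Tc0 (left) and Tc22 over Tc0 (right); red points have an adjusted p under 0.05 and black bars are list medians. On the left the members' median is 0.12 and that of mitosis genes -0.28; on the right no point is red.

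In Tc22 over Tc0 the edgeR fit called 0 genes of the 6 lists, beside 2.48% of all genes higher and 1.21% lower. The lists' counts at an unadjusted p under 0.05 were 9 further replisome factors, 5 fork and checkpoint genes and 1 of deoxynucleotide supply. The E2F list had 5, methylation and cohesion 3 and mitosis 2, beside 21.2% of all genes. DESeq2 called 2 further replisome factors and 1 gene of methylation and cohesion, beside 4.0% of all genes higher and 2.02% lower. Without the Tc0 library of mouse 728, 2 further replisome factors were higher in Tc22 and 7 lower, and 1 fork and checkpoint gene was higher and 4 lower. In that fit 9.91% of all genes were called higher and 7.10% lower. In Tc22 over Tc0 with CoA, 8 of 28 further replisome factors were lower and 1, Pold4, was higher at 1.70 (adjusted p = 0.000749). In the full fit 16.0% of all genes were called lower and 16.0% higher, shares that stand beside every list of this comparison. Without the Tc22 library of mouse 715, or that of mouse 725, 3 further replisome factors were lower, beside 10.0% and 6.61% of all genes. Of 16 fork and checkpoint genes 6 were lower and 1 higher, and of 20 mitosis genes 1 was lower and 6 higher. In deoxynucleotide supply 4 were lower and 1 higher, in the E2F list 5 lower and 6 higher, and in methylation and cohesion 2 lower and 1 higher. Without the block the fork and checkpoint list had 1 lower and 0 higher, and mitosis 0 lower and 2 higher. In that fit 7.04% of all genes were called lower and 6.63% higher. Without the Tc22 or CoA library of mouse 725, 2 fork and checkpoint genes were lower and 1 mitosis gene higher. In those fits 6.61% and 7.51% of all genes were called lower, and 7.32% and 7.85% higher. Ccne1 had 45.7, 50.7 and 46.1 CPM in Tc22, against 85.3, 102 and 97.3 CPM in Tc0 with CoA (log2 fold change -1.0 ± 0.10, adjusted p = 0.000369).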

How the data were processed

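Total RNA of 9 libraries was depleted of ribosomal RNA, made into stranded libraries with random primers and sequenced as paired ends, per the labels' protocols. STAR 2.5.2, RSEM 1.3.0, GRCm38 and mm10 are listed, with no role given, per the submitters' processing notes. The deposited values are whole-number counts per gene, per the authors' table, and all 9 single files were identical to it. RSEM estimates need not be whole, so the counts may have been rounded. The annotation release, strand setting and filters: not given in the sources used here. Of 53679 gene identifiers, 53650 were in GENCODE M21 (GRCm38), which gave symbols, exon lengths and overlaps.

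In R 4.3.3, edgeR 4.0.16 fitted group and mouse over all 9 libraries (TMM, filterByExpr, glmQLFTest, 4 residual degrees of freedom), with p-values adjusted over 15348 genes and 0.05 as threshold. SE was taken as |log2 fold change| over the root of the F statistic. The mouse is a block because the series text says that each mouse gave all populations; deviations of same-mouse libraries from their group means correlated at 0.0699 to 0.617 over 9 pairs. Alternatives were DESeq2 1.42.0, other scalings, no count filter, no block, the compared groups alone, each library or mouse left out, and GC offsets. The fit was checked on simulated counts, drawn with no library set apart and no shift with GC content. That check does not cover a library like Tc0 of mouse 728. The members and lists were chosen with earlier results of these data known. Named genes were members called in any comparison, the member of smallest p per role and comparison, a fixed set of core members and up to 3 called genes per other list; Mcm3, Mcm5, Mcm6, Rfc2, Rfc4, Dbf4, Cdc7, Gins1, Gins2, Pola2, Pold2, Orc3, Orc4, Orc5, Aurka, Cd3g, Cd8a, Cd8b1, Lck and Cd5 were also named after their values were seen. P-values are set against the spread left after group and mouse are fitted, over all 9 libraries. Constant differences between the 3 mice are not part of that spread.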

Additional observations from a re-analysis of the deposited data

How the results depend on the processing

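Calls on the members depended on the libraries used more than on scaling. For Tc0 with CoA over Tc0, the count of members higher was 10 with DESeq2, RLE size factors or no count filter and 11 with library size alone, but 2 without the replicate block and 5 with the compared groups alone; leaving out a library or mouse gave 0 to 14. The share of all genes called higher moved too: 12.0%, 12.7%, 7.67%, 13.1%, 5.21% and 10.4% in those fits, in that order, and 3.0% to 14.9% over the leave-outs. The count lower was 1 with GC offsets and 0 to 3 with libraries left out, and the median log2 fold change stayed between 0.10 and 0.19. For Tc22 over Tc0, 1 member was lower with DESeq2 and 1 with no count filter; leave-outs gave 0 to 4 higher and 0 to 6 lower, beside 0.932% to 9.91% and 0.338% to 7.10% of all genes, and medians from -0.07 to -0.01. For Tc22 over Tc0 with CoA, without the replicate block 0 were higher and 6 lower, and with GC offsets 2 were higher; leave-outs gave 0 to 2 higher and 2 to 14 lower, beside 6.29% to 18.7% and 5.57% to 19.0% of all genes, and medians from -0.21 to -0.12. The cause of these shifts was not tested.

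Over named members and settings, 1213 values kept direction and side of the threshold, 115 lost a call, 28 gained one and 50 turned sign. Most of these values belong to members not called in the full fit, which had no call to lose. The full fit called 10 members for CoA and 0 for Tc22 over Tc0. For Tc22 over Tc0 with CoA it called 10 lower and 1 higher. Of the 10 members higher with CoA, 8 lost the call without the block, Mcm10 lost it without the Tc0 library of mouse 725 or without mouse 725, and Rfc3 without mouse 725 or 728. None of the values that turned sign was called in the full fit. In Tc22 over Tc0, Cdt1 was 0.002 with DESeq2, 0.012 with library size alone and 0.007 with the compared groups alone. GC offsets gave Mcm2 -0.042, Orc1 0.009, Fen1 -0.12, Rpa2 -0.047, Rpa3 0.001 and Rrm1 0.013 there, and Cdt1 -0.094 and Lig1 -0.028 in Tc22 over Tc0 with CoA. With libraries left out, signs turned in Pcna (-0.086 to 0.114), Chaf1b (-0.016 to 0.179) and Pold1 (-0.458 to 0.204) for CoA. The same held for Tc22 over Tc0 in Mcm2 (-0.087 to 0.213), Cdc45 (-0.085 to 0.079), Cdt1 (-0.066 to 0.118), Orc1 (-0.216 to 0.044), Fen1 (-0.053 to 0.19), Lig1 (-0.074 to 0.074), Rpa2 (-0.083 to 0.164) and Chaf1b (-0.046 to 0.188), and for Tc22 over Tc0 with CoA in Gmnn (-0.113 to 0.054) and Chaf1b (-0.133 to 0.082).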
